A study of Mus musculus with 74 samples.

Results

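This account concerns lung tumours that carried a lentiviral vector with 1 guide RNA against p53 and 1 against Lkb1, set against tumours in which either guide was paired with an inert one. The members were chosen by guide name alone, with either gene in either place of the vector. Of 378754 tumours in the table, 3643 were p53/Lkb1 tumours, from 72 of 74 mice. The comparison genotypes were p53/inert (8610 tumours), Lkb1/inert (4703) and inert/inert with different guides in the places (2973), where inert means a guide named safe, NT or EGFP.

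All mice shared a background abbreviated KT, which includes R26 LSL-Tomato, a Cre-dependent reporter. The 9 KT mice lacked Cas9, and their guides had no nuclease to act with. A further 45 mice had the H11-Cas9 allele as well, where Cas9 is not behind a stop cassette, and 20 had H11-LSL-Cas9, where Cas9 awaits removal of a stop cassette by Cre. The protocol text of the labels writes both Cas9 genotypes with LSL, while the genotype field separates them; the genotype field was followed. Cre came with the virus in every group, the lungs were taken about 3 months after infection, and barcodes with both guides were amplified from 32 µg of whole-lung DNA. Whether a guide had cut in a given tumour was not measured, and the sources used here do not give the viral dose of each mouse.

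p53, encoded by Trp53 (GeneID 22059), is a transcription factor that answers DNA damage and oncogenic stress with cell cycle arrest or cell death. Lkb1, encoded by Stk11 (GeneID 20869), is a kinase that activates AMPK and its related kinases and so restrains growth and links it to nutrient state. Both are tumour suppressors in lung adenocarcinoma. In these tumours each size is an estimate of cell number, obtained from the reads of the tumour's barcode and of spike-in barcodes of known cell number.

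A KT mouse held from 139 to 472 p53/Lkb1 tumours (median 220), an H11-Cas9 mouse from 8 to 41 (median 17) and an H11-LSL-Cas9 mouse from 0 to 52 (median 27). The summed p53/Lkb1 tumours were 2325, 836 and 482, and 2 H11-LSL-Cas9 mice had none, mouse 3 with 16 and mouse 7 with 4 tumours of any genotype. KT mice had 1434013 to 11183386 reads, H11-Cas9 mice 118601 to 6256147 and H11-LSL-Cas9 mice 37 to 1161475. A read stood for a median of 4.82, 7.96 and 12.9 cells in these groups, so that the smallest tumours were the least precise in H11-LSL-Cas9. The smallest tumour listed in a mouse had between 50.1 and 369 cells, and therefore tumours that never formed and tumours that stayed below this limit cannot be told apart. As a possible batch, mice were separated by the summed cells of their spike-in barcodes. The sum was near 100000 in 25 H11-Cas9 and 5 KT mice, and near 300000 in the other 20 H11-Cas9 mice, the other 4 KT mice and every H11-LSL-Cas9 mouse.

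In H11-Cas9 mice, p53/Lkb1 tumours were on average larger than inert/inert tumours, and so were tumours with either guide beside an inert one. The geometric mean size of p53/Lkb1 tumours in a mouse ran from 93.1 to 1685 cells (median over 45 mice 213), against 108 to 394 cells (median 180) for inert/inert tumours. The ranges overlapped, and the highest p53/Lkb1 values lay above any inert/inert value. Mouse 24 gave the top of both ranges, and the next highest p53/Lkb1 value was 714 cells in mouse 16. Within mice, the mean log2 size of p53/Lkb1 tumours exceeded that of inert/inert tumours by 0.29 ± 0.10 (mean ± SE, 45 mice), which is 1.22-fold. It was higher in 25 of 45 mice and passed the 2-sided sign-flip permutation test (Benjamini-Hochberg adjusted p = 0.011). Among the 92 gene pairs tested in this group, 42.4% were called larger than inert/inert and the median pair lay at 0.21, with p53/Lkb1 at rank 37. Another setting, adaptive sampling, took the largest tumours of each genotype up to a number set by its share in KT, or all where fewer existed. It turned the sign (-0.49 ± 0.14, 44 mice, permutation, adjusted p = 0.00188). Most p53/Lkb1 tumours were kept but only the larger inert/inert ones, so that missing tumours also count and the value mixes number with size.

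The single guides gave size differences of the same order. p53/inert tumours exceeded inert/inert tumours by 0.29 ± 0.05 log2 units in H11-Cas9, in 38 of 45 mice (permutation, adjusted p = 4.25e-05). Lkb1/inert tumours exceeded them by 0.27 ± 0.09, in 26 of 45 mice (permutation, adjusted p = 0.00956). Of the 17 single genes, 64.7% were called larger. Set against KT, the p53/inert value passed (0.28 ± 0.07, label permutation, adjusted p = 0.0229) and the Lkb1/inert value did not (0.22 ± 0.14, label permutation, adjusted p = 0.285). In H11-Cas9 mice near 100000 cells of spike-in, Lkb1/inert lay 0.45 above inert/inert, and near 300000 cells 0.04. For p53/inert the values were 0.37 and 0.20, and neither difference between these sets of mice passed. The SD over mice was 0.31 for p53/inert, 0.62 for Lkb1/inert and 0.65 for p53/Lkb1, with a median of 76, 22 and 17 tumours per mouse in these genotypes.

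With all listed tumours, no difference in mean log2 size passed between p53/Lkb1 tumours and tumours with either guide beside an inert one. p53/Lkb1 tumours differed from p53/inert tumours of the same mouse by -0.003 ± 0.09 (45 mice, 18 above and 27 below 0, permutation, adjusted p = 0.987), with a 95% interval from -0.18 to 0.18. They differed from Lkb1/inert tumours by 0.02 ± 0.09 (25 above and 20 below 0, permutation, adjusted p = 0.944), with a 95% interval from -0.17 to 0.21. Across both steps of all pairs, 11.1% of 180 differences were called higher and 5.56% lower, and neither step to p53/Lkb1 was among them. With tumours taken up to their share in KT as above, the difference from p53/inert passed at -1.13 ± 0.14 (44 mice, permutation, adjusted p = 3.29e-05), and that from Lkb1/inert did not (0.12 ± 0.12, permutation, adjusted p = 0.405). The first value sets most p53/Lkb1 tumours against only the larger p53/inert ones. It mixes number with size and does not compare the largest tumours of each genotype.

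The p53/Lkb1 value was below the sum of the single values. The interaction, the log2 size of the pair minus both singles plus inert/inert, was -0.27 ± 0.10 in H11-Cas9, below 0 in 28 of 45 mice (permutation, adjusted p = 0.0441). An interaction below 0 was common in this group, called in 27.3% of 88 pairs with a median of -0.21. The call was close to the threshold, since leaving out any 1 of 23 of the 45 mice moved the adjusted p above 0.05, to at most 0.0804. In the mice near 100000 cells of spike-in it was -0.38 ± 0.14 (25 mice, permutation, adjusted p = 0.0434), and near 300000 cells -0.13 ± 0.15 (20 mice, permutation, adjusted p = 0.728). With the safe guides alone as inert it was -0.23 ± 0.11 (permutation, adjusted p = 0.221).

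The size difference between p53/Lkb1 and inert/inert tumours passed in the mice of only 1 spike-in total. It was 0.44 ± 0.14 over the 25 mice near 100000 cells (permutation, adjusted p = 0.00841) and 0.11 ± 0.12 over the 20 near 300000 cells (permutation, adjusted p = 0.584). The difference between these sets of mice did not pass (0.33, label permutation p = 0.093, adjusted p = 0.52). With the safe guides alone as inert, the pair value was 0.24 ± 0.11 (44 mice, permutation, adjusted p = 0.0812).

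Without Cas9 the genotypes hardly separated. In the 9 KT mice the p53/Lkb1 size was 0.07 ± 0.07 above inert/inert (5 of 9 mice above 0, exact sign-flip p = 0.328, where the smallest p that 9 mice allow is 0.00391). The geometric means of p53/Lkb1 tumours ran from 201 to 485 cells over KT mice and those of inert/inert tumours from 204 to 576 cells, so that the ranges overlapped almost wholly. The H11-Cas9 value was 0.22 above the KT value, a difference that did not pass (label permutation, adjusted p = 0.213), and the interaction differed from KT by -0.27 without passing (label permutation, adjusted p = 0.38).

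In H11-LSL-Cas9 mice no size difference of p53/Lkb1 tumours passed the test when all listed tumours were used. Their geometric means ran from 101 to 1160 cells over mice, with a median of 165, against 121 to 423 cells and a median of 184 for inert/inert tumours. The within-mouse difference was -0.04 ± 0.14 (17 mice, 7 above 0, permutation, adjusted p = 0.903), where 3.33% of 90 pairs were called larger. Against p53/inert it was -0.09 ± 0.11 and against Lkb1/inert -0.05 ± 0.12 (18 mice each, permutation, adjusted p = 0.866 and 0.957). With tumours taken up to their share in KT, the difference from p53/inert passed at -0.72 ± 0.17 (17 mice, permutation, adjusted p = 0.00344). A larger part of the p53/Lkb1 than of the p53/inert tumours was kept, so that number and size are mixed here too. The interaction was -0.08 ± 0.11 (17 mice, permutation, adjusted p = 0.918). The pair values of the Cas9 groups differed by 0.33 ± 0.17 without passing (label permutation, adjusted p = 0.323).

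**Figure D1:**
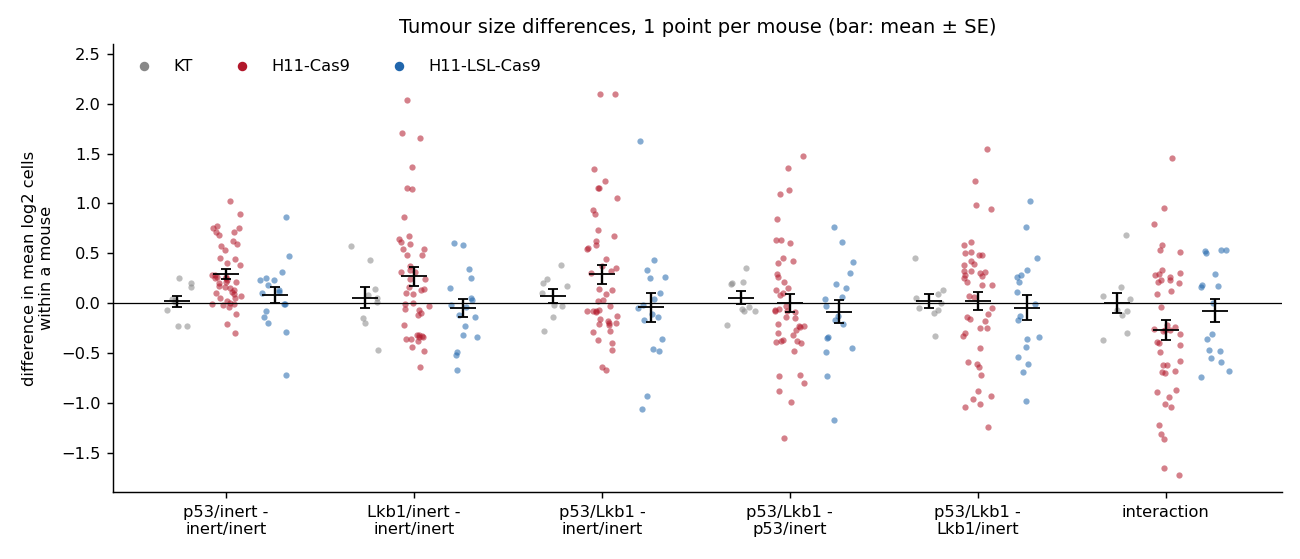
Differences in mean log2 cells within a mouse, 1 point per mouse, for KT (grey, 9 mice), H11-Cas9 (red, 45) and H11-LSL-Cas9 (blue, 17 or 18), with mean and SE as bars. In H11-Cas9 the means of p53/inert, Lkb1/inert and p53/Lkb1 over inert/inert lie at 0.29, 0.27 and 0.29, and both steps from a single guide to the pair lie near 0.

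The mean of logs covers little of what set p53/Lkb1 apart from inert/inert tumours, which was a small number of very large tumours. Lkb1/inert tumours of H11-Cas9 mice had such a tail too, with 46 of 1021 at 10000 cells or more. In H11-Cas9, 85 of 836 p53/Lkb1 tumours had at least 1000 cells (10.2%, exact binomial 95% interval 8.20 to 12.4), 35 had at least 10000 (4.19%, 2.93 to 5.77) and 11 at least 100000 (1.32%, 0.659 to 2.34). Those of at least 10000 cells came from 19 mice and those of at least 100000 from 8. Mouse 24 alone, with 37 p53/Lkb1 tumours, held 17 of the 85 of at least 1000 cells. Of 1107 inert/inert tumours, 62 had at least 1000 cells (5.60%) and 0 had at least 10000, which allows a share of up to 0.271%. The intervals and limits cover counting error only, and tumours of a mouse are not independent.

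The single guides parted at this end of the size range. Of 3487 p53/inert tumours 327 had at least 1000 cells (9.38%) but only 29 at least 10000 (0.832%) and 2 at least 100000. Of 1021 Lkb1/inert tumours 110 had at least 1000 cells (10.8%), 46 at least 10000 (4.51%) and 6 at least 100000. Mouse 24 held 17 of those 110. The p53/Lkb1 shares of at least 1000 and 10000 cells lay beside those of Lkb1/inert, and above that of p53/inert at 10000 cells.

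Tested within mice at 1000 cells, the p53/Lkb1 share was 3.58 ± 1.20 percentage points above inert/inert in H11-Cas9 (26 of 45 mice above 0 and 15 below, permutation, adjusted p = 0.0108). Near 100000 cells of spike-in it was 4.998 ± 1.82 points (permutation, adjusted p = 0.0232), and near 300000 cells 1.81 ± 1.41 (permutation, adjusted p = 0.341). It did not pass at 500 cells (2.89 ± 1.98) or with safe guides only (3.19 ± 1.41, permutation, adjusted p = 0.275 and 0.068), and its difference from KT of 3.12 ± 2.01 points did not pass (label permutation, adjusted p = 0.266). The p53/inert share was 3.78 ± 0.73 points above and the Lkb1/inert share 5.26 ± 1.28 points above (permutation, adjusted p = 3.40e-05 and 0.000538). Against KT the p53/inert value passed (4.66 ± 1.55 points, label permutation, adjusted p = 0.0216). The Lkb1/inert value did not (5.87 ± 2.53 points, label permutation, adjusted p = 0.0804), and it was 7.90 points near 100000 cells of spike-in and 1.95 near 300000. In this measure 51.1% of 92 pairs and 64.7% of 17 single genes were called higher than inert/inert. p53/Lkb1 lay -0.20 ± 1.14 points from p53/inert and -1.68 ± 1.12 points from Lkb1/inert, and neither difference passed (permutation, adjusted p = 0.975 and 0.443). The interaction in this share was -5.45 ± 1.38 points, below 0 in 30 of 45 mice (permutation, adjusted p = 0.00213), where 37.5% of 88 pairs were called below 0 and the median was -3.69. Near 100000 cells of spike-in the interaction was -7.36 ± 2.07 points (permutation, adjusted p = 0.0188) and near 300000 cells -3.06 ± 1.62 (permutation, adjusted p = 0.25), and its difference from KT of -7.41 points did not pass (label permutation, adjusted p = 0.164).

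At 10000 cells, a limit added after the counts were seen, p53/Lkb1 and p53/inert tumours differed. The p53/Lkb1 share was 2.99 ± 0.82 points above that of p53/inert (19 of 45 mice above 0 and 11 below, permutation, adjusted p = 0.00784), and it stayed between 2.66 and 3.14 points when each mouse was left out in turn. Here 13.3% of 180 steps were called higher. Near 100000 cells of spike-in the difference was 3.28 ± 1.12 points (permutation, adjusted p = 0.0477) and near 300000 cells 2.62 ± 1.23 (permutation p = 0.04, adjusted p = 0.27). Against inert/inert the share was 3.82 ± 0.82 points higher (19 mice above 0 and 0 below, permutation, adjusted p = 6.57e-05), a call shared by 47.8% of 92 pairs. Since 0 of 1107 inert/inert tumours reached this size, no mouse could lie below 0, and the direction of this test was fixed in advance. The p53/Lkb1 share lay -0.86 ± 0.79 points from that of Lkb1/inert (permutation, adjusted p = 0.601).

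Percentiles of size were taken over the geometric mean of inert/inert tumours in the same mouse and pooled over mice. In H11-Cas9 the median p53/Lkb1 tumour was at 0.847 times that mean, against 0.859 for inert/inert, 0.998 for p53/inert and 0.787 for Lkb1/inert. At the 90th percentile the values were 4.83, 3.29, 4.85 and 5.75 in the same order. At the 95th percentile p53/Lkb1 reached 22.5, against 5.25 for inert/inert, 8.78 for p53/inert and 39.6 for Lkb1/inert, and leaving out each mouse moved the p53/Lkb1 value between 15.1 and 27.5. At the 99th percentile it reached 508, against 16.2, 38.8 and 328. Few tumours lie beyond that point, and leaving out each mouse moved the p53/Lkb1 value between 427 and 512. With mice weighted equally it was 537, against 444 for Lkb1/inert. The median p53/Lkb1 tumour lay at 0.986 times the median inert/inert tumour, and the 99th percentile at 31.4 times its counterpart. In H11-LSL-Cas9 the 95th percentile was 6.25 for p53/Lkb1, against 4.33 for inert/inert, 6.91 for p53/inert and 6.88 for Lkb1/inert. The 99th percentiles there were 72.1, 9.98, 30.7 and 59.4 in the same order.

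**Figure D2:**
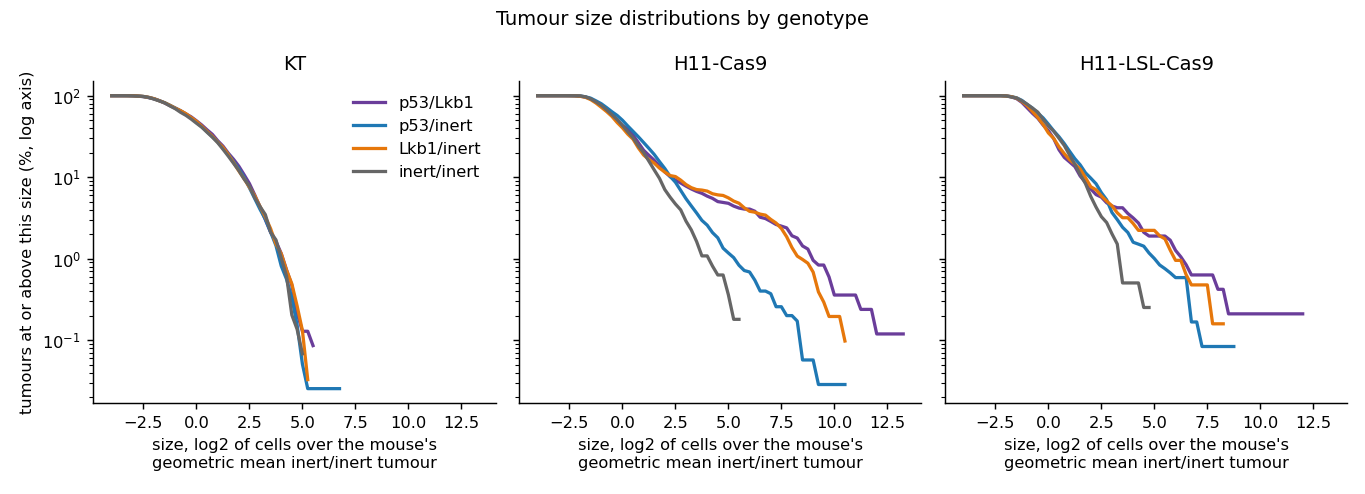
Percent of tumours at or above each size (log axis), with size as log2 of cells over the geometric mean inert/inert tumour of the same mouse, for 4 genotypes in KT, H11-Cas9 and H11-LSL-Cas9. In KT the curves lie together. In H11-Cas9 p53/Lkb1 and Lkb1/inert have a long upper tail, which lies above p53/inert and inert/inert. The 95th percentiles are 22.5, 39.6, 8.78 and 5.25 in that order. The medians are 0.847, 0.787, 0.998 and 0.859, so that this order does not hold over the whole range.

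The largest p53/Lkb1 tumours carried much of the cells. The largest in H11-Cas9 was estimated at 1551510 cells from 109583 reads (p53_V1 with Lkb1_V2, mouse 37) and the next at 553433 cells (p53_V2 with Lkb1_V2), in the same mouse. The following ones had 273422 cells (mouse 28) and 173696 cells (mouse 41). The largest tumour held 32.1% of all p53/Lkb1 cells in the group and the 10 largest 70.7%. The arithmetic mean size was 5774 cells, and 3923 without the largest tumour, against 2916 for Lkb1/inert, 750 for p53/inert and 351 for inert/inert. p53/Lkb1 tumours made up 0.709% of the tumours of the group and 1.17% of the cells, and in KT 1.13% and 1.17%.

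On the scale of the arithmetic mean within a mouse, p53/Lkb1 exceeded inert/inert by 1.72 ± 0.37 log2 units in H11-Cas9 (45 mice, permutation, adjusted p = 6.81e-05). It lay 0.87 ± 0.40 above p53/inert and -0.43 ± 0.43 from Lkb1/inert, and neither step passed (permutation, adjusted p = 0.0955 and 0.501).

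In H11-LSL-Cas9 some p53/Lkb1 tumours reached these sizes too. Of 482 p53/Lkb1 tumours 30 had at least 1000 cells (6.22%, 4.24 to 8.77), 9 at least 10000 (1.87%, 0.857 to 3.51) and 2 at least 100000, from 16, 7 and 2 mice. Of 400 inert/inert tumours 19 had at least 1000 cells (4.75%) and 0 at least 10000, which allows up to 0.75%. p53/inert had 92 and 9 of 1205 past these limits (7.63% and 0.747%), and Lkb1/inert 41 and 11 of 642 (6.39% and 1.71%). At 1000 cells the within-mouse difference of p53/Lkb1 from inert/inert was 2.58 ± 2.01 points (17 mice, 11 above 0, permutation, adjusted p = 0.43), which did not pass, and it differed from the H11-Cas9 value by less than the spread over mice (0.996 ± 2.34 points, label permutation, adjusted p = 0.873). The largest p53/Lkb1 tumour of the group, with 713881 cells (p53_V1 with Lkb1_V1, mouse 16), held 59.3% of the p53/Lkb1 cells of its group. Without it the mean size fell from 2498 to 1020 cells.

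In KT 429 of 2325 p53/Lkb1 tumours had at least 1000 cells (18.5%), close to 17.1% of inert/inert and 16.9% of Lkb1/inert tumours, and 668 of 3918 p53/inert tumours did. Only 5 had at least 10000 cells, from 2 mice, and the largest had 20928 cells.

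The number of p53/Lkb1 tumours relative to inert/inert tumours fell in H11-Cas9. Number was measured in each mouse as the log2 of p53/Lkb1 over inert/inert tumours, with 0.5 added to each, and set against KT mice, where the ratio gives the makeup of the virus pool. In KT it ran from 0.59 to 0.78 (median 0.68, 9 mice). In H11-Cas9 it ran from -1.73 to 1.58 (median -0.37, 45 mice), with 44 mice below every KT mouse and 1 above. The mean differed from KT by -1.07 ± 0.09 log2 units, so that the relative number fell to 0.475-fold (label permutation, adjusted p = 4.25e-05, from the smallest p that the permutations can give). Of 136 pairs 47.1% were called lower, with a median of -0.56, and p53/Lkb1 was the 36th lowest.

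Lkb1/inert tumours fell in number too, and p53/inert tumours did not pass the test. Lkb1/inert number in H11-Cas9 differed from KT by -1.19 ± 0.09 log2 units (0.44-fold, 44 of 45 mice below every KT mouse, label permutation, adjusted p = 5.67e-05), the second lowest of 17 single genes, of which 35.3% were called lower. p53/inert number was 0.22 ± 0.06 above KT (1.17-fold, label permutation, adjusted p = 0.142), which did not pass, with 27 of 45 mice above every KT mouse and 8 below. KT mice ran from 1.31 to 1.53 and H11-Cas9 mice from 0.86 to 3.23, and this test of the difference in means takes no account of unequal spread. The ratio of p53/Lkb1 to p53/inert tumours ran from -2.99 to -0.95 in H11-Cas9 (median -2.04) and from -0.86 to -0.61 in KT, with all 45 mice below every KT mouse. The mean difference was -1.30 ± 0.07 (0.407-fold, label permutation, adjusted p = 8.5e-05), where 22.1% of 272 steps were called lower. The ratio of p53/Lkb1 to Lkb1/inert was 0.11 ± 0.09 above KT (label permutation, adjusted p = 0.686) and the groups overlapped.

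The numbers showed no interaction past the threshold. The p53/Lkb1 number minus both singles plus inert/inert was -0.11 ± 0.11 relative to KT (label permutation, adjusted p = 0.979). Within each spike-in total the fall of the pair was -1.14 ± 0.13 among mice near 100000 cells (25 against 5 KT mice, label permutation, adjusted p = 0.00206) and -0.99 ± 0.12 near 300000 cells (20 against 4, adjusted p = 0.00526). Near 100000 cells, all 25 H11-Cas9 names begin with LA and all 5 KT names with SL. Cas9 and whatever those letters mark cannot be told apart there. Near 300000 cells the 4 KT mice and 14 of the 20 H11-Cas9 mice share the letters LA.

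H11-LSL-Cas9 mice showed a smaller fall. The relative number of p53/Lkb1 tumours ran from -0.37 to 1.02 (median 0.20, 17 mice), with 12 mice below every KT mouse and 2 above. The mean differed from KT by -0.39 ± 0.10, so that it fell to 0.766-fold (label permutation, adjusted p = 0.0336, where 19.1% of 136 pairs were called lower). Without H11-LSL-Cas9 mouse 14 or KT mouse 1, 5 or 8 the adjusted p exceeded 0.05, at most 0.0591. Against the 4 KT mice near 300000 cells of spike-in, the only ones that share that total, the value was -0.37 ± 0.10 and did not pass (label permutation, adjusted p = 0.344). Lkb1/inert number differed from KT by -0.39 ± 0.10 (0.765-fold, label permutation, adjusted p = 0.0356, 17.6% of 17 single genes called lower). The ratio to p53/inert was -0.58 ± 0.10 (0.669-fold, 16 of 17 mice below every KT mouse, label permutation, adjusted p = 0.0032, 8.46% of 272 steps called lower), and that to Lkb1/inert was 0.001 ± 0.07 (label permutation, adjusted p = 0.99). The ratio to p53/inert against the 4 KT mice was -0.57 ± 0.10 (label permutation, adjusted p = 0.132).

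The fall of p53/Lkb1 number was larger in H11-Cas9 than in H11-LSL-Cas9, with a difference of -0.69 ± 0.13 log2 units (45 against 17 mice, label permutation, adjusted p = 6.48e-05), a difference in which 43.4% of 136 pairs were called lower. The same held for Lkb1/inert (-0.80 ± 0.12, adjusted p = 8.5e-05, 35.3% of 17 single genes called lower) and for the step from p53/inert to the pair (-0.72 ± 0.11, adjusted p = 0.000124, 18.8% of 272 steps called lower), both by label permutation. For p53/inert it did not pass (0.03 ± 0.10, label permutation, adjusted p = 0.903). The mouse names of all H11-LSL-Cas9 mice begin with letters that no other mouse has, so that the Cas9 allele and whatever those letters mark cannot be told apart.

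**Figure D3:**
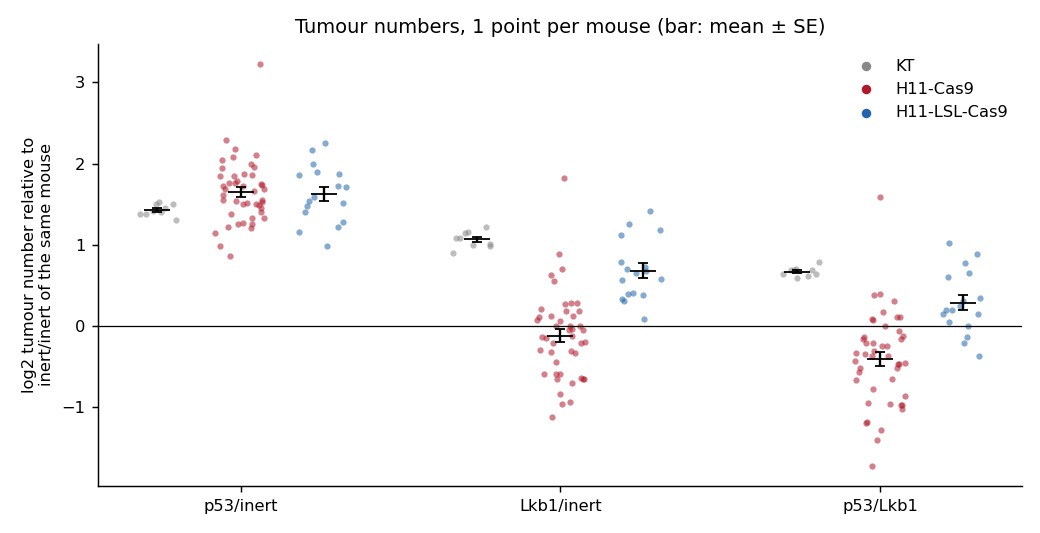
Log2 of tumour number relative to inert/inert tumours of the same mouse (0.5 added to each), 1 point per mouse, for KT (grey, 9 mice), H11-Cas9 (red, 45) and H11-LSL-Cas9 (blue, 17), with mean and SE as bars. For p53/Lkb1 44 of 45 H11-Cas9 mice lie below every KT mouse, and for Lkb1/inert as many. For p53/inert 8 lie below and 27 above every KT mouse.

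The number relative to KT depended on the smallest size counted. Counting summed tumours relative to inert/inert and to KT, p53/Lkb1 in H11-Cas9 lay at 0.476-fold for all listed sizes, 0.47-fold from 200 cells, 0.565-fold from 500, 0.802-fold from 1000, 1.28-fold from 2000 and 2.95-fold from 5000. Lkb1/inert went from 0.445-fold to 4.1-fold over the same limits, and p53/inert from 1.18-fold to 2.16-fold. The last step rests on 42 p53/Lkb1 and 8 inert/inert tumours in H11-Cas9 and on 32 and 18 in KT. At 1000 cells, tested over mice, the p53/Lkb1 number differed from KT by -0.53 ± 0.23 (label permutation, adjusted p = 0.297), which did not pass. In H11-LSL-Cas9 the p53/Lkb1 values were 0.76-fold for all sizes, 0.583-fold from 200 cells, 0.924-fold from 1000 and 1.61-fold from 2000, and the one from 5000 cells rests on 1 inert/inert tumour.

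**Figure D4:**
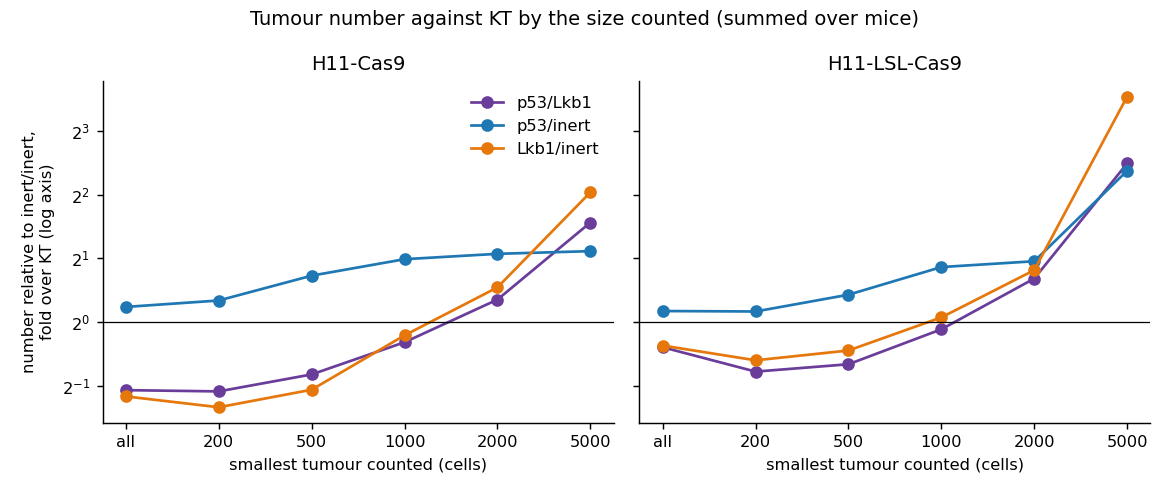
Tumour number relative to inert/inert, as a fold over the same ratio in KT (log axis, summed over mice), against the smallest size counted. In H11-Cas9 p53/Lkb1 passes from 0.476 to 2.95 and Lkb1/inert from 0.445 to 4.1, while p53/inert lies above 1 throughout; in H11-LSL-Cas9 the points from 5000 cells rest on 1 inert/inert tumour.

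Each gene had a V1 and a V2 guide, and with both orders p53/Lkb1 tumours came from 8 guide pairs. Their numbers in H11-Cas9 differed by Lkb1 guide. In H11-Cas9 the 4 guide pairs with Lkb1_V1 lay between 0.272-fold and 0.38-fold of KT relative to inert/inert, and the 4 with Lkb1_V2 between 0.601-fold and 0.707-fold, so that the sets did not overlap. Summed over pairs, Lkb1_V1 with p53 was at 0.319-fold (297 tumours) and Lkb1_V2 with p53 at 0.654-fold (539 tumours), while p53_V1 and p53_V2 with Lkb1 were at 0.492-fold and 0.461-fold. Within mice, the log2 ratio of Lkb1_V1 to Lkb1_V2 tumours among p53/Lkb1 was 0.16 in KT and -0.99 in H11-Cas9, below 0 in 40 of 45 mice. The difference was -1.15 ± 0.15 (0.45-fold, label permutation, adjusted p = 0.0129), and 2.5% of 160 such guide ratios were called lower.

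The same guide ratio among Lkb1/inert tumours differed from KT by -1.001 ± 0.10 in H11-Cas9. For the p53 guides within p53/Lkb1 it differed by 0.05 ± 0.11 (label permutation, adjusted p = 0.986). In H11-LSL-Cas9 the Lkb1 ratio within p53/Lkb1 differed from KT by -0.34 ± 0.14 and did not pass (label permutation, adjusted p = 0.385). There the guide pairs with Lkb1_V1 lay between 0.526-fold and 0.957-fold and those with Lkb1_V2 between 0.752-fold and 0.959-fold, and the sets overlapped.

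**Figure D5:**
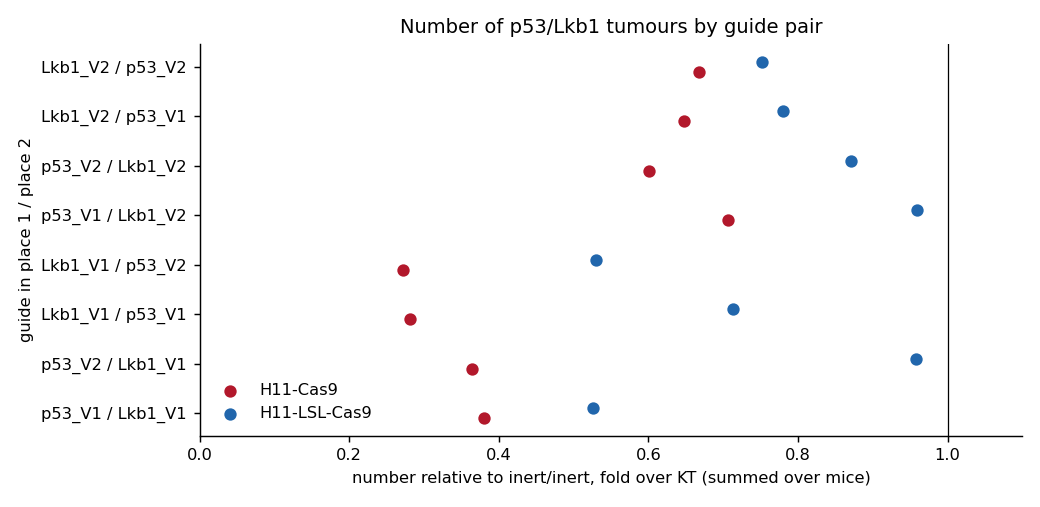
Number of p53/Lkb1 tumours relative to inert/inert, as a fold over KT, summed over mice, for each of the 8 guide pairs in H11-Cas9 (red) and H11-LSL-Cas9 (blue). In H11-Cas9 the 4 pairs with Lkb1_V1 lie at or below 0.38 and the 4 with Lkb1_V2 at or above 0.601.

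No size difference between guides or orders passed the test. Within H11-Cas9 mice, p53/Lkb1 tumours with Lkb1_V1 differed from those with Lkb1_V2 by 0.02 ± 0.17 log2 units (41 mice, permutation, adjusted p = 0.986). With p53_V1 against p53_V2 the difference was -0.22 ± 0.13 (43 mice, permutation, adjusted p = 0.388), and with p53 in the first place against Lkb1 in the first place it was 0.005 ± 0.17 (44 mice, permutation, adjusted p = 0.978). In H11-LSL-Cas9 these differences were 0.06 ± 0.13, 0.09 ± 0.20 and 0.09 ± 0.15, and none of them passed either. Tumours of at least 10000 cells occurred with every guide: in H11-Cas9 17 of 297 p53/Lkb1 tumours with Lkb1_V1 and 18 of 539 with Lkb1_V2 reached that size, and 19 of 420 with p53_V1 and 16 of 416 with p53_V2. Of the 11 tumours of at least 100000 cells in H11-Cas9, p53_V2 followed by Lkb1_V2 had 5, and no other guide pair had more than 2.

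Against other pairs that share a gene with it, p53/Lkb1 stood low beside p53 pairs with a large effect and did not separate from most others. Of 24 such pairs tested in H11-Cas9, p53/Lkb1 tumours were called smaller than 12.5% and larger than 4.17%. They were smaller than Rb1/p53 tumours of the same mouse, with a difference of -0.64 ± 0.10 log2 units (36 of 45 mice, permutation, adjusted p = 0.00024). Rb1 encodes the retinoblastoma protein, which holds back entry into S phase. They were smaller than Nf1/p53 tumours, with a difference of -0.25 ± 0.09 (32 of 45 mice, permutation, adjusted p = 0.0362). Nf1 encodes neurofibromin, a GTPase-activating protein. They were larger than Keap1/p53 tumours by 0.26 ± 0.08 (29 of 45 mice, permutation, adjusted p = 0.0207). Keap1 encodes the adaptor through which the stress regulator Nrf2 is degraded.

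Apc/Lkb1 and Keap1/Lkb1 had been chosen for comparison too. p53/Lkb1 tumours differed from Apc/Lkb1 tumours by -0.45 ± 0.21 (34 mice, permutation, adjusted p = 0.135) and from Keap1/Lkb1 tumours by -0.08 ± 0.12 (44 mice, permutation, adjusted p = 0.672), and neither difference passed. Apc encodes a scaffold of the complex that destroys β-catenin. In the share of tumours of at least 1000 cells, p53/Lkb1 was called below 12.5% of 24 pairs, among them Rb1/p53 (-12.1 ± 1.5 points, permutation, adjusted p = 0.00024) and Nf1/p53 (-4.22 ± 1.29 points, permutation, adjusted p = 0.0146). It lay -4.41 ± 2.46 points from Apc/Lkb1 and -3.93 ± 2.02 points from Keap1/Lkb1 (permutation, adjusted p = 0.195 and 0.155). In H11-LSL-Cas9 the size differences from Nf1/p53, Apc/Lkb1 and Keap1/Lkb1 were -0.23 ± 0.11, -0.25 ± 0.21 and -0.12 ± 0.12, and none of the 3 passed (permutation, adjusted p from 0.303 to 0.469).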

How the data were processed

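Each mouse was 1 library and 1 replicate, and groups follow the genotype field. Per tumour, the authors deposited read counts, not normalized, and a signal, the estimated number of cells, which rests on spike-in barcodes. A single factor per mouse turns reads into cells, as was checked. The sources used here do not give aligner, barcode calling or filters. Guides were matched to genes by name, and p53 and Lkb1 to Trp53 and Stk11 through synonyms in RefSeq's mouse gene table (GRCm38.p6). Tumours whose construct held 1 guide in both places (6757) were not used.

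Size effects were within-mouse differences in mean log2 cells, or in the share of tumours of at least 1000 cells, in mice holding 5 or more tumours of every genotype compared, tested with at least 6 mice by 2-sided sign flips (exact up to 16 mice, otherwise 100000 resamples). Numbers used mice with at least 5 inert/inert tumours and 2-sided permutation of mouse labels on the difference in means. Size and share differences between groups used label permutation too, and against KT it was on the difference over its standard error. P-values were adjusted (Benjamini-Hochberg, 0.05) over all pairs, steps or genes of the table. The labels do not say more of how the mice were related, so p-values measure the spread between these mice. Named pairs were the 3 comparison pairs and, of other pairs with p53 or Lkb1, the 5 lowest and 5 highest differences past the threshold. Members, lists and tests were chosen with earlier results of these data known, and the minimum of 6 mice was set after the data were seen. Some results are not reported here. Tools were Python 3.11.15, scipy 1.17.1, pandas 2.3.3, numpy 2.4.6 and, for figures, matplotlib 3.10.9.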

Additional observations from a re-analysis of the deposited data

Results flagged for a closer look

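Of 16 KT values tested for a mouse standing apart from the other 8 by Dixon's ratio, 4 had one, and chance gives about 1 in 20. The size interaction was 0.68 in KT mouse 7, against 0.16 in the nearest mouse. The difference in the share of tumours of at least 1000 cells between p53/Lkb1 and p53/inert was 9.83 points in KT mouse 6, with 2.77 next. Between p53/Lkb1 and Lkb1/inert it was -10.3 points in KT mouse 5, with 0.278 next, and between p53/inert and inert/inert it was -10.5 points in KT mouse 1, with -2.22 next. The Cas9 groups differed in tumour number, tested by label permutation: -0.69 for p53/Lkb1, -0.80 for Lkb1/inert and -0.72 for the ratio of p53/Lkb1 to p53/inert, each lower in H11-Cas9 than in H11-LSL-Cas9.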

How the results depend on the processing

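No paired analysis was possible because the labels give the mice no replicate numbers shared between groups. This limit concerns comparisons between groups of mice only. Size and share differences between genotypes were paired within each mouse. Of 195 values under other settings, 140 were counted as the same, 38 had the other sign, 15 no longer passed and 2 newly passed with the same sign. For tested settings, the same means the same direction and side of the threshold. Mice weighted by tumours and summed numbers had no test, and mostly counted as the same when within the SD over mice of the main value. Values that passed with the other sign are among the 38.

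Among the values that passed in H11-Cas9, p53/Lkb1 size against inert/inert was -0.49 with adaptive sampling, 0.24 with safe guides only and 0.11 near 300000 cells of spike-in, where the last 2 no longer passed. The size interaction was -0.23 with safe guides only and -0.13 near 300000. Without each mouse in turn the size interaction ran from -0.31 to -0.24 and no longer passed without mice 2, 6, 7, 9, 11, 14, 17, 18, 21, 22, 26, 29, 30, 31, 33, 34, 36, 37, 38, 39, 40, 43 or 45. The share of large tumours against inert/inert no longer passed at 500 cells (2.89), with safe guides only (3.19) or near 300000 (1.81), and its interaction at 2000 cells (-3.35), 10000 cells (-1.70) or near 300000 (-3.06). p53/Lkb1 number no longer passed from 1000 cells (-0.53). Mice of both Cas9 groups held few tumours of that size, so the 0.5 added to each number weighs on all number values from 1000 cells.

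In H11-LSL-Cas9 p53/Lkb1 number no longer passed with safe guides only (-0.44) or near 300000 (-0.37), and turned sign from 1000 cells (0.064). Without each mouse it ran from -0.43 to -0.34. Its ratio to p53/inert no longer passed from 1000 cells (-0.54) or near 300000 (-0.57).

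The following did not pass and changed sign in some settings. Against p53/inert in H11-Cas9 the size was 0.41 from 200 cells, 2.23 from 1000 cells over 3 mice, 0.87 as arithmetic mean, 0.066 at the 90th percentile and 0.070 near 100000, ran from -0.036 to 0.028 without each mouse, and newly passed at -1.13 with adaptive sampling. Against Lkb1/inert it was -0.31 from 200 cells, -0.43 as arithmetic mean, -0.16 at the 90th percentile, -0.0024 with at least 10 tumours and -0.016 near 100000, and ran from -0.013 to 0.050 without each mouse. The share of large tumours against p53/inert was 2.42 at 2000 cells, 2.99 at 10000 cells (which passed), 0.072 with at least 10 tumours and 0.535 near 100000, and ran from -0.599 to 0.219. Against Lkb1/inert it was 1.11 at 500 cells. The number ratio to Lkb1/inert was -0.19 from 1000 cells, and the guide order difference -0.094 with at least 2 tumours of each kind.

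In H11-LSL-Cas9 the size against inert/inert was 0.52 from 200 cells, 1.03 as arithmetic mean, 0.27 at the 90th percentile, 9.9e-05 with at least 10 tumours and 0.044 with same-guide constructs kept, and ran from -0.15 to 0.021 without each mouse. Against p53/inert it was 0.32 from 200 cells and 0.59 as arithmetic mean, and newly passed at -0.72 with adaptive sampling. Against Lkb1/inert it was 0.17, 0.42, 0.027 and 0.0080 from 200 cells, as arithmetic mean, at the 90th percentile and with at least 10 tumours, and ran from -0.11 to 0.0080. Its interaction was 0.026 from 200 cells. The share of large tumours against p53/inert was 2.15 and 2.23 at 2000 and 10000 cells and ran from -1.15 to 0.149. Against Lkb1/inert it was 0.175, 0.622 and 1.11 at 2000 and 10000 cells and with at least 10 tumours, and ran from -1.07 to 1.11. The interaction in share was 0.485 at 10000 cells. The number ratio to Lkb1/inert was -0.18 from 200 cells and ran from -0.038 to 0.027. The causes were not tested. The minimum of 1000 cells for mean size gave no other value, because fewer than 3 mice had 5 such tumours of each genotype, and H11-LSL-Cas9 has no mouse near 100000. The settings at 10000 cells were chosen after seeing the data. An H11-Cas9 mouse held a median of 17 p53/Lkb1 tumours and an H11-LSL-Cas9 mouse 27, which limits what the shares of large tumours can show.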
